A study of Mus musculus with 18 samples.

Results

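Plau, Plaur, Plat, Serpine2, Spint1, Spint2 and St14 encode plasminogen activators, the receptor that gathers the urokinase-type activator at the cell surface, the transmembrane protease matriptase, and inhibitors of these proteases. They were taken by gene symbol from the deposited table of read counts, where they are 7 of 24527 rows, and their values were followed in all 18 libraries. A filter on low counts kept 13827 genes for testing, and all 7 passed it. The filter's level was 0.479 CPM, scaled there by library totals alone. St14 met it in 5 libraries, 1 with DMSO, 3 with ionomycin and 1 with TGFb. CPM values below are counts scaled to library size and composition (TMM). On that scale ionomycin PD883 library 10, at 0.489 CPM, also met the level for St14. The other members met it in all 18.

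The study used 3 mouse pancreatic ductal adenocarcinoma lines, PD454, PD7591 and PD883, of mixed strain background. Each line received DMSO (the vehicle), 2.5 µM ionomycin (a calcium ionophore) or 10 ng/ml TGFb (a cytokine that can drive epithelial-mesenchymal transition), and RNA was taken after 48 h. There were 9 groups with 2 libraries each, and thus 6 libraries per treatment. All groups shared a rich medium with dexamethasone, cholera toxin, pituitary extract, a serum supplement and soybean trypsin inhibitor, which itself blocks serine proteases. Whether duplicates are separate cultures is not stated in the labels, so their spread may be technical. P-values within lines, between lines and of line dependence rest on that spread alone. Those over the 3 lines also take in differences of the effect between lines. All of them concern these libraries alone. The cells were measured in bulk, and fewer cells that carry a transcript cannot be told apart from less of it per cell.

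In plasminogen activation, the urokinase-type activator (Plau) or the tissue-type activator (Plat) cuts the circulating zymogen plasminogen into plasmin, a protease that digests fibrin and activates other matrix proteases. The receptor encoded by Plaur holds the urokinase-type activator on the membrane, while serpins such as protease nexin 1 (Serpine2) trap the active enzymes. Matriptase (St14) is a membrane-anchored protease of epithelia that can activate the urokinase-type activator, hepatocyte growth factor and the receptor PAR2, and the Kunitz-type inhibitors encoded by Spint1 and Spint2 hold it in check.

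The members lie apart in the genome (GRCm38, which is mm10). Plau lies on the plus strand at chr14:20836660-20843385, Plat on the plus strand at chr8:22757727-22782844 and Plaur on the plus strand at chr7:24462484-24475968. Serpine2 lies on the minus strand at chr1:79794197-79861180. Spint1 lies on the plus strand at chr2:119237362-119249527, Spint2 on the minus strand at chr7:29256323-29281912 and St14 on the minus strand at chr9:31089402-31131853. In the annotation St14 overlaps the gene Gm16071 on the opposite strand, and reads of that pair cannot be told apart because the counting's strand setting is not given in the sources used here. All 6 other members overlap no annotated gene.

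Promoter sequence was matched for 4 of the 7 members (Plaur, Serpine2, Spint1 and Spint2) in RefSeq, build GRCm38.p6. The 250 bases before the start site are shown for Plaur, which rose with both treatments, and for the paired inhibitors Spint1 and Spint2, which moved in opposite directions with TGFb. Capitals mark matches, on either strand, to GGGCGG (the GC box), TGANTCA (the AP-1 motif) and CACCTG (the E-box of the Snail and Zeb repressors). The letters GTCTAGAC (a SMAD palindrome) and CCAAT were also searched and were not found in these 4 windows.
Plaur, chr7:24462233-24462482, plus strand: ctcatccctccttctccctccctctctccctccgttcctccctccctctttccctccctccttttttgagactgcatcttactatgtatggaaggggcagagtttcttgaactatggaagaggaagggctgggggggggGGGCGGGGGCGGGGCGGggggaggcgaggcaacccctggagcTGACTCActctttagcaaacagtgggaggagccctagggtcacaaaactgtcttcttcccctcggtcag
Spint1, chr2:119237110-119237359, plus strand: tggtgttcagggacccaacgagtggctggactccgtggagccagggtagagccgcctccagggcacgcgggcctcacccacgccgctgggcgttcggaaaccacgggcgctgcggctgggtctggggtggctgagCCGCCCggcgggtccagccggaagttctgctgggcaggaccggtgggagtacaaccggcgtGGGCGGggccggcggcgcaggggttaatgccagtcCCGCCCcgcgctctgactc
Spint2, chr7:29281978-29282227, minus strand: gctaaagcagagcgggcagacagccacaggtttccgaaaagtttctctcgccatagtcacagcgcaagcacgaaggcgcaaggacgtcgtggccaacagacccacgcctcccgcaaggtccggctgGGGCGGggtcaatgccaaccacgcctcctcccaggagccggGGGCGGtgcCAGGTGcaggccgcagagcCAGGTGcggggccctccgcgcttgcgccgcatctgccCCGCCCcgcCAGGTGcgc
The Plaur window held an AP-1 match, TGACTCA, at 69 to 63 bases before the start, and 3 GC boxes of which the last pair share a base. Spint2 held CAGGTG, the reverse complement of CACCTG, at 74 to 69, 55 to 50 and 9 to 4 bases before the start, with 3 GC boxes that overlap none of them. Spint1 held 3 GC boxes and no E-box or AP-1 match, and Serpine2 held 6 GC boxes. Of 32851 promoter windows of the same length, 6.75% held TGANTCA, 17.2% held CACCTG, 0.247% held CACCTG at least 3 times, 32.7% held GGGCGG and 8.47% held it at least 3 times. These matches describe letters in a window and do not show binding.

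Library totals ran from 17591005 to 37894692 counts, with 0.256% to 4.11% of them from Rn45s, a ribosomal RNA gene. In 4 libraries (DMSO PD454 14, DMSO PD883 8, TGFb PD454 18 and TGFb PD883 12) expression leaned toward short transcripts, where Pearson's r across genes (which are not independent replicates) of log2 exon length with each gene's deviation in that library was -0.196 to -0.094, against -0.0501 to 0.135 in the others. Without these 4 libraries the tests over 3 lines against DMSO called the same 4 members for each treatment. The 8 epithelial markers were all tested. They summed to 4896 to 7738 CPM in the DMSO libraries, 5356 to 9631 under ionomycin and 3977 to 6977 under TGFb. The keratins Krt8 and Krt18 led these sums, while Epcam reached at most 4.30 CPM. Other markers of the list varied far more than the sums. Over all libraries Krt19 ran from 4.12 to 1746 CPM, Cdh1 from 19.0 to 781 and Sox9 from 5.80 to 158. Immune markers (3 of 6 tested) summed to 3.49 to 5.93, 9.07 to 29.4 and 3.14 to 4.12 CPM in that order, mostly Cd68, with the pan-leukocyte gene Ptprc at 0.274 CPM or less. Fibroblast markers (4 of 5 tested, led by Pdgfrb) summed to 0.746 to 1.82, 0.800 to 2.21 and 1.89 to 17.1 CPM in the same order, endothelial markers (3 of 5 tested) to at most 3.43 and acinar markers (1 of 5 tested) to at most 6.23 CPM, with the acinar genes Cpa1 and Ptf1a at 0 in all libraries. The part of these cells in the results below was not tested. The TGFb target Smad7 rose with TGFb by 1.80 ± 0.29 and the calcium-calcineurin target Rcan1 rose with ionomycin by 2.77 ± 0.30 on the log2 scale (SE).

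With ionomycin 4 of the 7 members were higher than with DMSO and none lower, namely Plaur, Plat, Spint1 and Spint2. With TGFb 3 were higher (Plau, Plaur and Spint1) and 1 was lower (Spint2). Over all 13827 genes the share called higher and lower was 17.2% and 16.1% for ionomycin and 24.3% and 26.5% for TGFb. A gene was called at a Benjamini-Hochberg adjusted p under 0.05 in edgeR's quasi-likelihood test over the 3 lines. The median log2 fold change of the 7 members was 0.84 for ionomycin and 0.23 for TGFb, against -0.03 and -0.00 over all genes tested. The ionomycin median is the value of St14, which was not called and had few counts. Both contrasts use the same 6 DMSO libraries. Compared directly, 5 members were higher with ionomycin than with TGFb and 1 (Plau) was lower, where 31.0% of all genes were called higher and 31.9% lower.

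**Figure D1:**
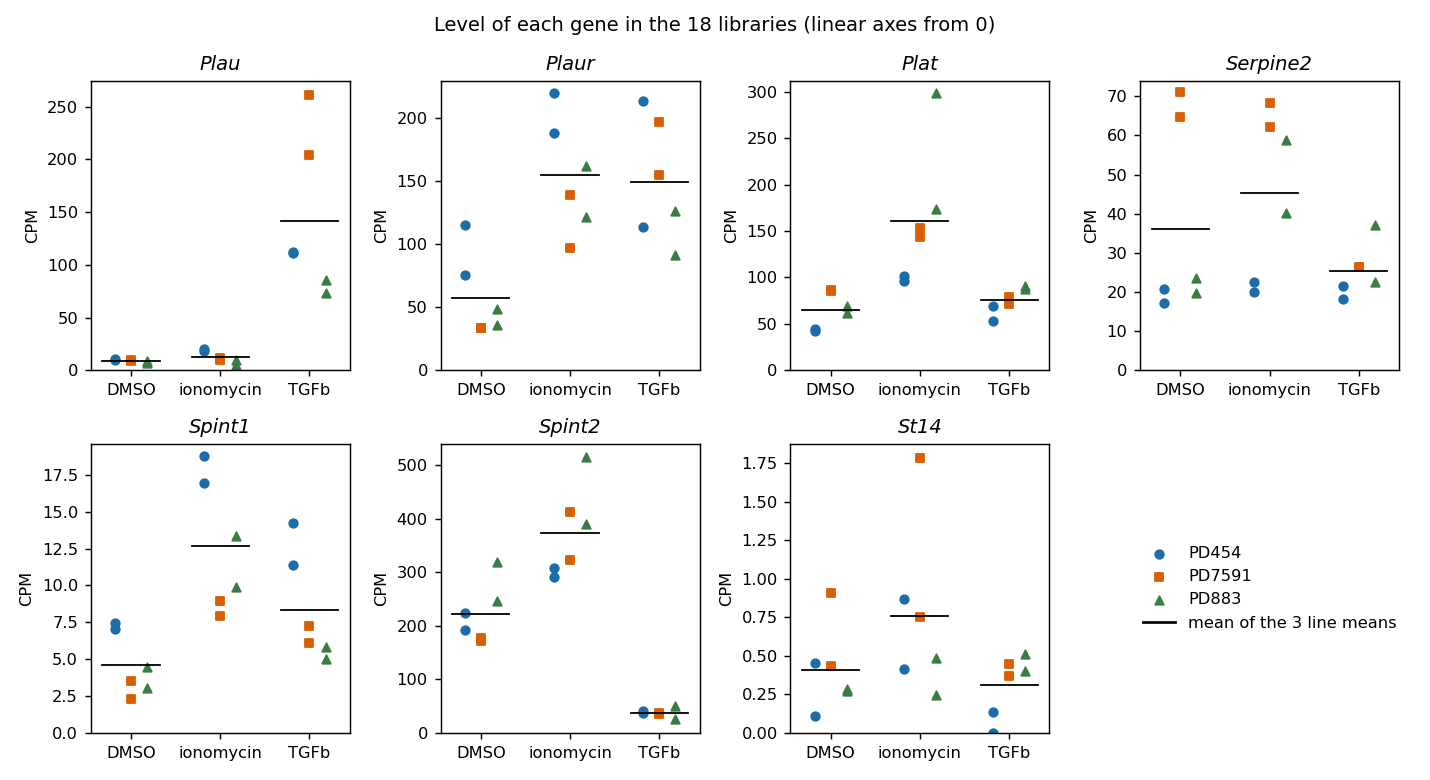
Each panel plots the level of a gene in CPM (linear axis from 0) in the 18 libraries by treatment, with a symbol for each line and a bar at the mean of the 3 line means. Plau was high with TGFb alone, at 73.5 to 262 CPM, and Spint2 with TGFb lay at 26.2 to 50.2 CPM, below all 12 other libraries.

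Plau, the urokinase-type activator, was the member that rose most with TGFb. With DMSO it stood at 10.2 and 9.46 CPM in PD454, 8.90 and 9.46 in PD7591 and 8.50 and 6.95 in PD883. With TGFb it reached 112 and 111 CPM in PD454, 262 and 204 in PD7591 and 73.5 and 85.4 in PD883. The lowest TGFb library was thus far above the highest DMSO library, and the ranges did not overlap. The mean of the line means was 8.91 ± 1.08 CPM with DMSO and 141 ± 80.8 with TGFb (SD, n = 3 lines). That is 14.8-fold, or 3.89 ± 0.27 on the log2 scale (SE, adjusted p = 1.17e-09, edgeR).

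Plau did not pass the test for ionomycin. The ionomycin libraries held 20.5 and 18.1 CPM in PD454, 11.8 and 10.1 in PD7591 and 4.97 and 9.87 in PD883, with a log2 fold change of 0.43 ± 0.25 (adjusted p = 0.192, edgeR). Both PD454 libraries lay above every DMSO library, and in PD883 library 9 lay below every DMSO library while library 10 lay among them. Within PD454 alone Plau was called higher, by 0.98 ± 0.24 (adjusted p = 0.0106, edgeR). That call was lost without library 14 of DMSO (adjusted p = 0.0874) or library 15 of ionomycin (adjusted p = 0.0763, edgeR). In PD7591 and PD883 the log2 fold changes were 0.25 and -0.05. Against TGFb, Plau was lower with ionomycin by a log2 fold change of -3.46 ± 0.26 (adjusted p = 2.81e-09, edgeR), with no overlap.

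Plaur, the receptor of the urokinase-type activator, rose with both treatments. DMSO libraries held 75.8 and 115 CPM in PD454, 33.7 and 33.1 in PD7591 and 36.2 and 48.8 in PD883. Ionomycin libraries held 188 and 220 CPM in PD454, 139 and 97.0 in PD7591 and 122 and 162 in PD883. TGFb libraries held 113 and 214 CPM in PD454, 197 and 155 in PD7591 and 91.4 and 126 in PD883. The ranges overlapped because DMSO library 14 of PD454 was above the lowest libraries of both treatments, while within PD7591 and PD883 every treated library was above its DMSO pair.

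The log2 fold change of Plaur was 1.52 ± 0.23 for ionomycin (adjusted p = 8.85e-05) and 1.51 ± 0.24 for TGFb (adjusted p = 3.16e-05, edgeR). Between ionomycin and TGFb it differed by 0.01 ± 0.23 (adjusted p = 0.983, edgeR), which does not show that the treatments act alike. Within lines the ionomycin effect was 1.10 ± 0.30 in PD454, 1.82 ± 0.31 in PD7591 and 1.74 ± 0.30 in PD883, all called. The call in PD454 was lost without DMSO library 13 (adjusted p = 0.0940) or ionomycin library 15 (adjusted p = 0.0505) or 16 (adjusted p = 0.105, edgeR). The TGFb effect was called in PD7591 (2.40 ± 0.31) and PD883 (1.35 ± 0.30) but not in PD454 (0.78 ± 0.30, adjusted p = 0.0609, edgeR). It was called there without DMSO library 14 (adjusted p = 0.0350), TGFb library 17 (adjusted p = 0.0109), DMSO PD883 library 8 (adjusted p = 0.0485) or TGFb PD883 library 11 (adjusted p = 0.0487, edgeR). The difference between lines did not pass for TGFb (adjusted p = 0.0784, edgeR).

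Plat, the tissue-type activator, rose with ionomycin and was not called with TGFb. Under DMSO it stood at 42.7 and 44.9 CPM in PD454, 86.6 and 84.9 in PD7591 and 69.3 and 61.7 in PD883. Under ionomycin it stood at 95.7 and 102 CPM in PD454, 153 and 143 in PD7591 and 173 and 299 in PD883. All 6 ionomycin libraries were above all 6 DMSO libraries, though the PD883 duplicates differed widely from each other. Plat rose by 1.27 ± 0.16 (log2, adjusted p = 1.30e-05, edgeR), a mean of 65.0 ± 21.0 CPM against 161 ± 69.6 (SD, n = 3 lines).

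With TGFb the Plat libraries held 53.1 and 69.1 CPM in PD454, 71.5 and 78.7 in PD7591 and 87.8 and 91.1 in PD883, within or near the DMSO range. Its change of 0.23 ± 0.16 did not pass (adjusted p = 0.232, edgeR). Ionomycin exceeded TGFb by 1.04 ± 0.16 (adjusted p = 2.04e-05, edgeR), again with no overlap. Within lines the ionomycin effect was 1.17 ± 0.20 in PD454, 0.79 ± 0.20 in PD7591 and 1.85 ± 0.21 in PD883. All were called, but the PD7591 call was lost without library 1 or 2 of DMSO (adjusted p = 0.0934 and 0.0981) and without library 3 or 4 of ionomycin (adjusted p = 0.0802 and 0.0504, edgeR). The TGFb effects in PD454 (0.48 ± 0.20) and PD883 (0.45 ± 0.20) were called when ionomycin PD883 library 9 or 10 was left out, with adjusted p between 0.0130 and 0.0211 (edgeR).

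**Figure D2:**
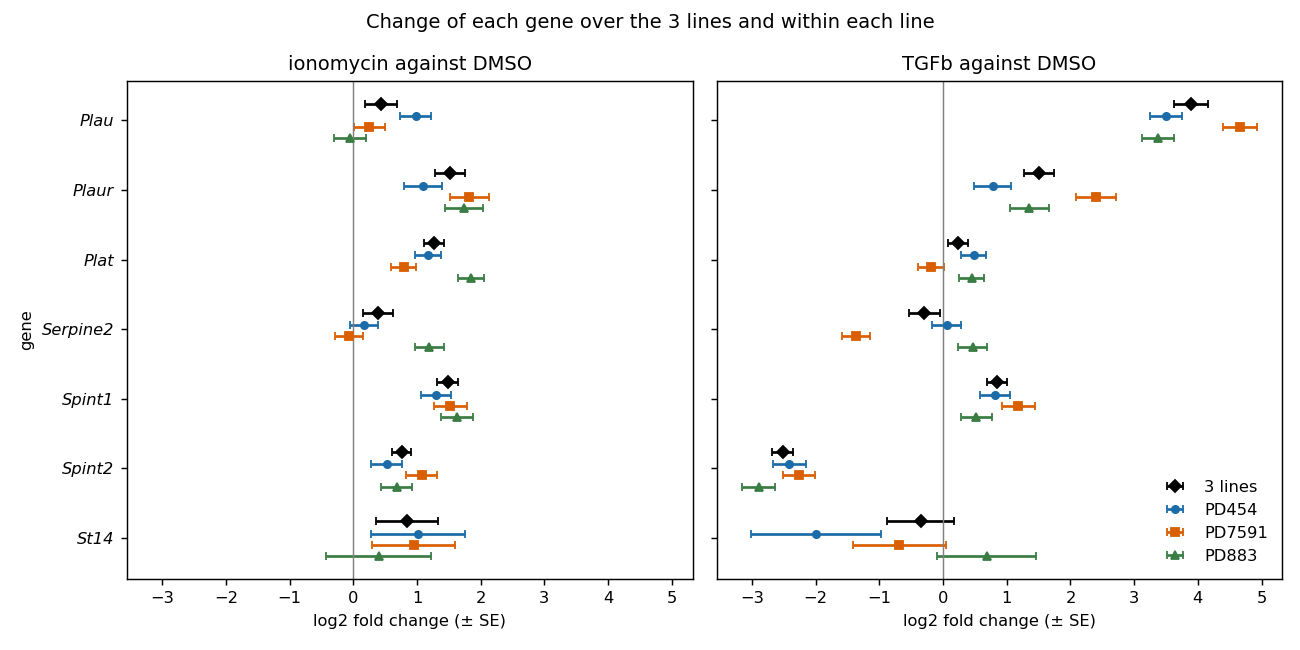
Points give the log2 fold change against DMSO for each member, in black over the 3 lines and in colour within each line, and bars give ± SE. Spint1 lies right of 0 in every line under both treatments, Spint2 right of 0 with ionomycin and between -2.26 and -2.89 with TGFb, and Serpine2 splits by line.

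Serpine2, the serpin protease nexin 1, was called in neither comparison with DMSO over the 3 lines, and its values differed by line. PD7591 held 64.7 and 71.2 CPM with DMSO, 62.1 and 68.4 with ionomycin, and 26.5 and 26.3 with TGFb. PD883 held 19.8 and 23.5 CPM with DMSO, 58.8 and 40.2 with ionomycin, and 22.5 and 37.2 with TGFb. PD454 held 17.2 and 20.7, 20.1 and 22.6, and 18.1 and 21.4 CPM in the same order. High Serpine2 was thus found in PD7591 with DMSO or ionomycin and PD883 with ionomycin, and the PD454 libraries stayed between 17.2 and 22.6 CPM.

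Over the 3 lines the log2 fold change of Serpine2 was 0.39 ± 0.24 for ionomycin (adjusted p = 0.212) and -0.29 ± 0.24 for TGFb (adjusted p = 0.323, edgeR). The TGFb effect was 0.06 ± 0.23 in PD454, -1.36 ± 0.23 in PD7591 (adjusted p = 2.67e-04) and 0.46 ± 0.22 in PD883 (adjusted p = 0.119, edgeR). The test of line dependence, with 2 degrees of freedom, gave adjusted p = 0.00764 (edgeR). Without library 11 of TGFb PD883 the PD883 effect was 0.78 and was called higher (adjusted p = 0.0109, edgeR). With ionomycin the effect in PD883 was 1.19 ± 0.23 (adjusted p = 0.00210), against 0.17 in PD454 and -0.06 in PD7591, and the test between lines missed the threshold (adjusted p = 0.0723, edgeR). Ionomycin exceeded TGFb by 0.68 ± 0.24 (adjusted p = 0.0182, edgeR), with overlapping ranges. That call was lost in 7 of 32 alternatives: without TGFb PD7591 library 5 (adjusted p = 0.0565) or 6 (adjusted p = 0.0574), or ionomycin PD883 library 9 (adjusted p = 0.0647), without the line PD7591 (adjusted p = 0.105), with duplicates summed (adjusted p = 0.146), with no line term (adjusted p = 0.0805) and with the length offset (adjusted p = 0.0670, edgeR).

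Spint2, a Kunitz inhibitor of matriptase and related proteases, fell with TGFb in every line and rose with ionomycin over the 3 lines. With DMSO it stood at 192 and 224 CPM in PD454, 172 and 178 in PD7591 and 319 and 247 in PD883. With TGFb it stood at 40.1 and 38.01 CPM in PD454, 35.8 and 37.3 in PD7591 and 50.2 and 26.2 in PD883. The ranges did not overlap, and the line means lay close together with TGFb, at 37.9 ± 1.26 CPM against 222 ± 55.3 with DMSO (SD, n = 3 lines). Spint2 thus changed by -2.52 ± 0.16 on the log2 scale (adjusted p = 3.96e-10, edgeR), a level 5.73-fold lower, and within lines it was -2.41 ± 0.25 in PD454, -2.26 ± 0.25 in PD7591 and -2.89 ± 0.26 in PD883, all called.

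Ionomycin libraries held 308 and 290 CPM of Spint2 in PD454, 323 and 413 in PD7591 and 515 and 390 in PD883. Within each line both ionomycin libraries were above both DMSO libraries, while the treatments overlapped across lines through the high DMSO library 7 of PD883. Over the 3 lines Spint2 rose by 0.76 ± 0.15 (adjusted p = 9.63e-04, edgeR). It was 1.07 ± 0.24 in PD7591 (adjusted p = 0.00702), 0.53 ± 0.24 in PD454 (adjusted p = 0.131) and 0.68 ± 0.24 in PD883 (adjusted p = 0.0565, edgeR). The PD7591 call was lost without DMSO library 1 (adjusted p = 0.0623) or 2 (adjusted p = 0.0502) or ionomycin library 4 (adjusted p = 0.0662, edgeR). The PD454 effect was called without TGFb PD883 library 11 (adjusted p = 0.0337) or 12 (adjusted p = 0.0305), and the PD883 effect without DMSO PD454 library 13 (adjusted p = 0.0472) or 14 (adjusted p = 0.0470), ionomycin PD883 library 10 (adjusted p = 0.0487) or TGFb PD883 library 11 (adjusted p = 0.00935) or 12 (adjusted p = 0.0108, edgeR). Between the treatments Spint2 was 9.70-fold higher with ionomycin than with TGFb, or 3.28 ± 0.17 on the log2 scale (adjusted p = 1.26e-11, edgeR).

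Spint1, the related inhibitor that binds matriptase, rose with both treatments, so the inhibitor pair moved together with ionomycin and apart with TGFb. With DMSO it stood at 7.08 and 7.45 CPM in PD454, 2.29 and 3.53 in PD7591 and 3.02 and 4.45 in PD883. With ionomycin it stood at 16.9 and 18.8 CPM in PD454, 8.94 and 7.96 in PD7591 and 9.89 and 13.3 in PD883. TGFb libraries held 11.4 and 14.2, 7.24 and 6.07, and 5.86 and 5.02 CPM in the same order of lines. All ionomycin libraries lay above all DMSO libraries, and the TGFb libraries lay above the DMSO libraries of their own line.

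The log2 fold change of Spint1 was 1.48 ± 0.16 for ionomycin (adjusted p = 2.43e-06), 0.85 ± 0.16 for TGFb (adjusted p = 2.72e-04) and 0.64 ± 0.16 for ionomycin against TGFb (adjusted p = 0.00194, edgeR), the last lost with no line term (adjusted p = 0.136). Within lines the ionomycin effect was 1.30 ± 0.23, 1.52 ± 0.25 and 1.63 ± 0.25 in PD454, PD7591 and PD883, all called. The TGFb effect was called in PD7591 (1.18 ± 0.26) and PD454 (0.82 ± 0.23), and in PD883 it was 0.53 ± 0.25 (adjusted p = 0.113, edgeR). The PD454 call was lost without DMSO library 13 (adjusted p = 0.0621) or 14 (adjusted p = 0.0551) or TGFb library 18 (adjusted p = 0.103), and PD883 was called without DMSO library 8 (adjusted p = 0.0490, edgeR).

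St14, which encodes matriptase, was near the limit of detection throughout. Its 6 DMSO libraries held 55 counts in all, the ionomycin libraries 91 and the TGFb libraries 46. In CPM the lowest, median and highest libraries stood at 0.110, 0.361 and 0.906 with DMSO, 0.249, 0.621 and 1.79 under ionomycin and 0, 0.387 and 0.511 with TGFb. The library at 0 was TGFb PD454 17, where a count of 0 allows up to 0.158 CPM (3 counts, counting error only), and the ranges of all treatments overlapped. St14 changed by 0.84 ± 0.49 for ionomycin (adjusted p = 0.191) and -0.35 ± 0.52 for TGFb (adjusted p = 0.600, edgeR). These SEs allow changes of 1 and more on the log2 scale, so changes of that size are not excluded at this depth. No line showed a called change (adjusted p = 0.161 to 0.772, edgeR). Ionomycin against TGFb passed at 1.20 ± 0.51 (adjusted p = 0.0483, edgeR), but that call was lost under 21 of 32 alternatives. They include leaving out any of 13 of the 18 libraries, with adjusted p up to 0.143 there, and St14 had passed the low-count filter mainly through ionomycin libraries.

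Per kilobase of annotated exon the members covered a wide span of levels. With DMSO the order was Spint2 at 48.6 ± 12.1 CPM per kb, Plaur at 21.8 ± 12.8, Plat at 10.4 ± 3.36, Serpine2 at 4.37 ± 3.32, Plau at 3.77 ± 0.456, Spint1 at 1.68 ± 0.835 and St14 at 0.0537 ± 0.0296 (SD, n = 3 lines). Neighbours from Spint2 to Plau in that order overlapped in their library ranges, while Plau and Spint1, and Spint1 and St14, did not overlap. With TGFb, Plau at 59.6 ± 34.1 CPM per kb stood beside Plaur at 57.1 ± 13.6, with overlapping ranges. Spint2 at 8.33 ± 0.277 then overlapped Plat at 12.1 ± 2.27. With ionomycin Spint2 at 81.9 ± 16.9 and Plaur at 59.1 ± 17.02 overlapped. Plat followed at 25.8 ± 11.1 CPM per kb and overlapped Plaur in its library range. Serpine2 at 5.47 ± 2.68, Plau at 5.30 ± 2.58 and Spint1 at 4.57 ± 1.73 overlapped one another, and St14 stood at 0.0996 ± 0.0605. Exon length is that of all annotated exons of a gene together, and the isoforms used in these cells were not resolved.

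With DMSO the lines differed in several members. Of the 7, 4 differed between PD454 and PD7591 with DMSO, where 21.5% of all genes were called. Plaur (1.51 ± 0.30) and Spint1 (1.31 ± 0.25) were higher in PD454, and Plat (-0.97 ± 0.20) and Serpine2 (-1.84 ± 0.23) were lower. Between PD454 and PD883, 3 differed against 35.3% of all genes, Plaur (1.17 ± 0.30) and Spint1 (0.95 ± 0.25) higher in PD454 and Plat (-0.58 ± 0.20) lower. Between PD7591 and PD883, 2 differed against 34.0% of all genes, Serpine2 higher in PD7591 (1.65 ± 0.23) and Spint2 lower (-0.69 ± 0.24). Plau differed between no pair, with adjusted p from 0.286 to 0.816 (edgeR).

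Some of these line differences rest on single libraries. Between PD454 and PD883, Plaur was lost without PD454 library 14 (adjusted p = 0.0868) or PD883 library 7 (adjusted p = 0.0897). Plat was lost without PD454 library 13 (adjusted p = 0.115) or 14 (adjusted p = 0.0869) or PD883 library 7 (adjusted p = 0.161), and Spint1 without PD883 library 7 (adjusted p = 0.111, edgeR). Spint2 was called there without TGFb PD883 library 11 (adjusted p = 0.0434) or 12 (adjusted p = 0.0446). Between PD7591 and PD883, Spint2 was lost without PD7591 library 1 (adjusted p = 0.143) or 2 (adjusted p = 0.114) or PD883 library 7 (adjusted p = 0.182, edgeR).

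Counted by line, ionomycin moved 4 members in PD454, 4 in PD7591 and 4 in PD883, where 21.0%, 18.6% and 22.5% of all genes were called. TGFb moved 3 members in PD454, 5 in PD7591 and 3 in PD883, against 31.0%, 37.8% and 38.4% of all genes. Plaur, Plat and Spint1 were called with ionomycin in each line, and Plau and Spint2 with TGFb in each line. The ionomycin effect passed the test of line dependence for 0 of 7 members, against 2.59% of all genes. At an unadjusted p under 0.05 there were 3, Plau, Plat and Serpine2, with edgeR adjusted p of 0.179, 0.0986 and 0.0723. The TGFb effect passed for 2 of 7, Serpine2 and Plau, against 5.26% of all genes. For Plau the TGFb effect was 4.66 ± 0.26 in PD7591, 3.50 ± 0.25 in PD454 and 3.37 ± 0.25 in PD883, with an adjusted p of 0.0496 (edgeR) that passed in 3 of 20 alternatives.

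Ratios of counts within a library, which do not depend on scaling between libraries, set each protease against its partner. They are descriptive and carry no test. The Plau to Plaur ratio had a lowest, median and highest value of 0.0824, 0.189 and 0.286 with DMSO, 0.0408, 0.0835 and 0.109 with ionomycin and 0.520, 0.896 and 1.33 with TGFb. The ionomycin and DMSO values overlapped, and every TGFb library lay above both. Plau to Serpine2 ran from 0.133 to 0.594 in DMSO libraries, 0.0845 to 1.02 under ionomycin and 2.30 to 9.88 under TGFb, where again no TGFb library overlapped the others.

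Plat to Serpine2 had medians of 2.33, 3.74 and 2.96 with DMSO, ionomycin and TGFb, with overlap throughout. Spint1 to Spint2 had medians of 0.0190, 0.0309 and 0.197, and its TGFb range of 0.117 to 0.374 lay above every DMSO and ionomycin library (highest 0.0647). St14 counts summed to 55 against 652 of Spint1 and 29246 of Spint2 with DMSO, 91 against 1500 and 44543 with ionomycin, and 46 against 1108 and 5128 with TGFb. Summed matriptase counts were thus far below those of either inhibitor under each treatment. In single libraries the gap to Spint1 varied, and the St14 to Spint1 ratio reached 0.395 with DMSO, 0.2 with ionomycin and 0.0873 with TGFb.

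**Figure D3:**
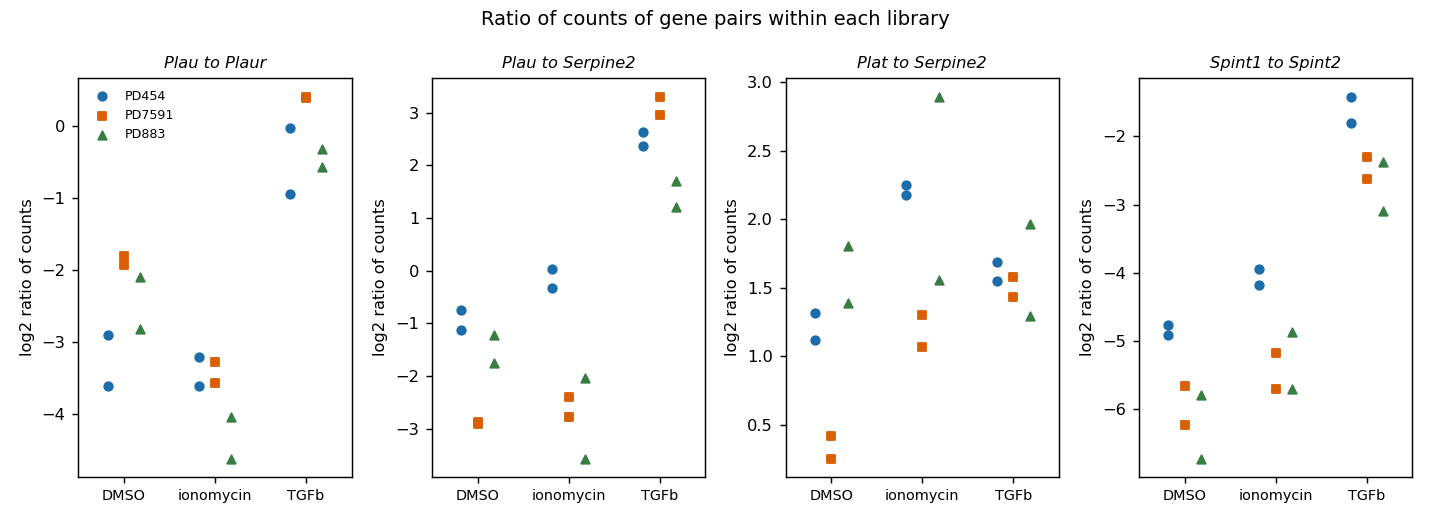
Each panel plots the log2 ratio of the counts of a gene pair in the 18 libraries by treatment and line. Plau to Plaur, Plau to Serpine2 and Spint1 to Spint2 were higher in every TGFb library than in any other library, with the lowest TGFb ratios at 0.520, 2.30 and 0.117 before the log.

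Other genes with the most similar pattern were ranked by Pearson's r of log2 CPM over the 9 group means, among 8998 or 8999 genes with a mean of at least 10 CPM. The 9 means share lines, treatments and libraries, and r is given as a description. For Plau the nearest were Fam222b (0.990), Tmcc1 (0.990) and Timp1 (0.985), the last an inhibitor of matrix metalloproteases. For Spint2 they were Etl4 (0.994), Wnk4 (0.991) and Herpud1 (0.990), and for Plaur Mapkapk5 (0.951), Saraf (0.939) and Rab10 (0.931). For Plat they were Hps4 (0.951), Dip2c (0.949) and Bri3 (0.929), for Spint1 Rassf8 (0.949), Lad1 (0.936) and Chd7 (0.935), and for Serpine2 Appl1 (0.917), Cuedc1 (0.915) and Alg10b (0.912). For the sparse St14 the highest r was 0.866 (Ablim1). Among the members themselves, Plau and Spint2 ran opposite at -0.927 and Plaur and Spint1 together at 0.885.

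Of 25 listed partners in the wider plasminogen system 19 were tested. With ionomycin 5 were higher and 6 lower, against 17.2% and 16.1% of all genes, with a median log2 fold change of -0.26. The lower ones include Plg and others with a mean under 1 CPM, where few counts were read. With TGFb 4 were higher and 6 lower, against 24.3% and 26.5% of all genes, with a median of -0.16. The TGFb counts are near what all genes gave. Thbd, the endothelial thrombin receptor thrombomodulin, rose with ionomycin from 4.46 ± 2.59 to 83.2 ± 62.1 CPM (SD, n = 3 lines), which is 4.18 ± 0.29 on the log2 scale (SE, adjusted p = 1.54e-08, edgeR), and its libraries ran from 22.8 to 161 CPM against 0.773 to 8.51 with DMSO. The intracellular serpin Serpinb8 rose by 2.66 ± 0.24 with ionomycin. Serpini1, the neuroserpin that inhibits the tissue-type activator, fell by 1.09 with ionomycin and rose by 1.35 ± 0.14 with TGFb. S100a10, the annexin partner that binds plasminogen, fell by 0.84 with ionomycin and by 0.89 with TGFb.

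With TGFb the growth factor Pdgfc, whose latent form the tissue-type activator can cleave, rose by 1.64 ± 0.13. Vldlr, an endocytic receptor that clears protease and serpin complexes, fell from 96.6 ± 76.0 to 17.8 ± 9.40 CPM with TGFb. With ionomycin Vldlr was higher than with DMSO by 1.40 ± 0.30 (adjusted p = 0.00162, edgeR), a call lost with no line term (adjusted p = 0.0854). The complement protease Masp1 fell by 1.75 with TGFb.

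Plg, the plasminogen zymogen, gave few counts. With DMSO its counts were 29 in PD454, 34 in PD883 and 0 in PD7591, and with ionomycin all 6 libraries were at 0. Set against 3 counts over all 6 ionomycin libraries, the limit that 0 allows, the pooled DMSO level was 18.9-fold higher. That ratio leaves out the error of the DMSO counts. Over the 3 lines Plg was called lower with ionomycin (adjusted p = 0.0147, edgeR). It was not called within PD454 (adjusted p = 0.151) or PD883 (adjusted p = 0.0993, edgeR), and PD7591 held no counts to compare. Only 30 alternatives gave a result for Plg, against 32 for the members. The call over the 3 lines was lost in 5 of these 30 alternatives. Library 8 of DMSO PD883 is among those, since without it the adjusted p was 0.0573. TGFb libraries held 23 counts, 22 of them in a single PD883 library, and 4 of the 6 TGFb libraries were at 0. The log2 fold change with TGFb was -1.97 (adjusted p = 0.131, edgeR). It was -2.63 without DMSO PD883 library 7 and -4.39 without TGFb PD883 library 12. Most of the DMSO counts of Plg were in PD454 library 14 and PD883 library 8. Both of them, and TGFb PD883 library 12, are among the 4 libraries that leaned toward short transcripts. No ionomycin library is among those 4.

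Relatives of matriptase, its substrates and the growth factor and PAR2 axis came to 25 listed genes, of which 14 were tested. With ionomycin 2 were higher and 2 lower (median 0.26), against 17.2% and 16.1% of all genes. With TGFb 4 were higher and 6 lower (median -0.95), against 24.3% and 26.5%. Between ionomycin and TGFb 10 were higher and 4 lower (median 1.34, against -0.04 over all genes), where 31.0% and 31.9% of all genes were called. Tmprss2, a transmembrane protease of the same family, fell with TGFb from 41.0 ± 39.7 to 0.519 ± 0.795 CPM, or -6.53 ± 0.30 on the log2 scale (adjusted p = 5.55e-12, edgeR). Its 6 TGFb libraries ran from 0 to 1.71 CPM and its DMSO libraries from 15.9 to 91.3. By line the log2 fold change was -5.90 in PD454, -11.5 in PD7591 and -7.19 in PD883, and it passed the test of line dependence (adjusted p = 0.0141, edgeR). The TGFb libraries held 67 counts in all, and 2 of them were at 0. With counts at or near 0 the size of a fold change is set by the fit, so the value in PD7591 is not firm. The part of this floor in the line dependence was not tested. The hepatocyte growth factor receptor Met fell with TGFb by 1.56 on the log2 scale.

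F2r, the thrombin receptor PAR1, rose with TGFb by 2.41 ± 0.21, from 253 ± 120 to 1255 ± 230 CPM, and the serine protease Prss22 rose by 3.44 ± 0.32. The F2r effect was 2.26 in PD454, 3.11 in PD7591 and 1.81 in PD883, and it passed the test of line dependence (adjusted p = 0.0196, edgeR). With ionomycin Mst1r, the receptor for macrophage-stimulating protein, rose by 1.48 ± 0.21. Met fell by 0.48 and Tmprss2 by 0.65 with ionomycin (adjusted p = 0.0243 and 0.0247, edgeR), and these calls were lost in 10 and 9 of 32 alternatives. For Met the lost calls include those without DMSO PD454 library 13, DMSO PD7591 library 2, DMSO PD883 library 7, ionomycin PD7591 library 3 or 4 or ionomycin PD883 library 9, with adjusted p up to 0.0682. For Tmprss2 they include those without DMSO PD7591 library 1 or 2, ionomycin PD454 library 15 or 16 or ionomycin PD7591 library 4, with adjusted p up to 0.0700 (edgeR). Hgf itself reached at most 20 counts in a library.

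Of 23 other serine protease inhibitors 15 were tested. With ionomycin 4 were higher and 1 lower (median 0.36), against 17.2% and 16.1% of all genes, and with TGFb 2 were higher and 4 lower (median -0.30), against 24.3% and 26.5%. Both totals are near or below what all genes gave. Serpinb1a, an intracellular inhibitor of neutrophil proteases, rose with ionomycin from 6.55 ± 5.14 to 64.6 ± 13.98 CPM (3.76 ± 0.60). That effect was 2.77 in PD454, 5.89 in PD7591 and 2.70 in PD883, and it passed the test of line dependence (adjusted p = 0.0294, edgeR). App, whose longer forms carry a Kunitz domain, rose by 0.56 ± 0.16 with ionomycin and by 0.39 ± 0.16 with TGFb (adjusted p = 0.0418, edgeR), the latter lost in 14 of 32 alternatives. The ionomycin call was lost with duplicates summed (adjusted p = 0.0512) and without the line PD454 (0.43, adjusted p = 0.103, edgeR). The lost TGFb calls include leaving out 8 of the 18 libraries singly, with adjusted p up to 0.0904. Wfdc2, a secreted inhibitor of epithelia, fell with TGFb from 205 ± 62.7 to 30.1 ± 24.8 CPM. Its log2 fold change was -2.26 in PD454, -3.02 in PD7591 and -3.99 in PD883, and it passed the test of line dependence (adjusted p = 0.00425, edgeR). Serpinb6b fell with TGFb by 0.66, a call lost with no line term (adjusted p = 0.0539, edgeR). Serpinb1a and Serpinb6b belong to mouse gene clusters with closely similar copies, so their counts are uncertain where the counting could split reads.

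**Figure D4:**
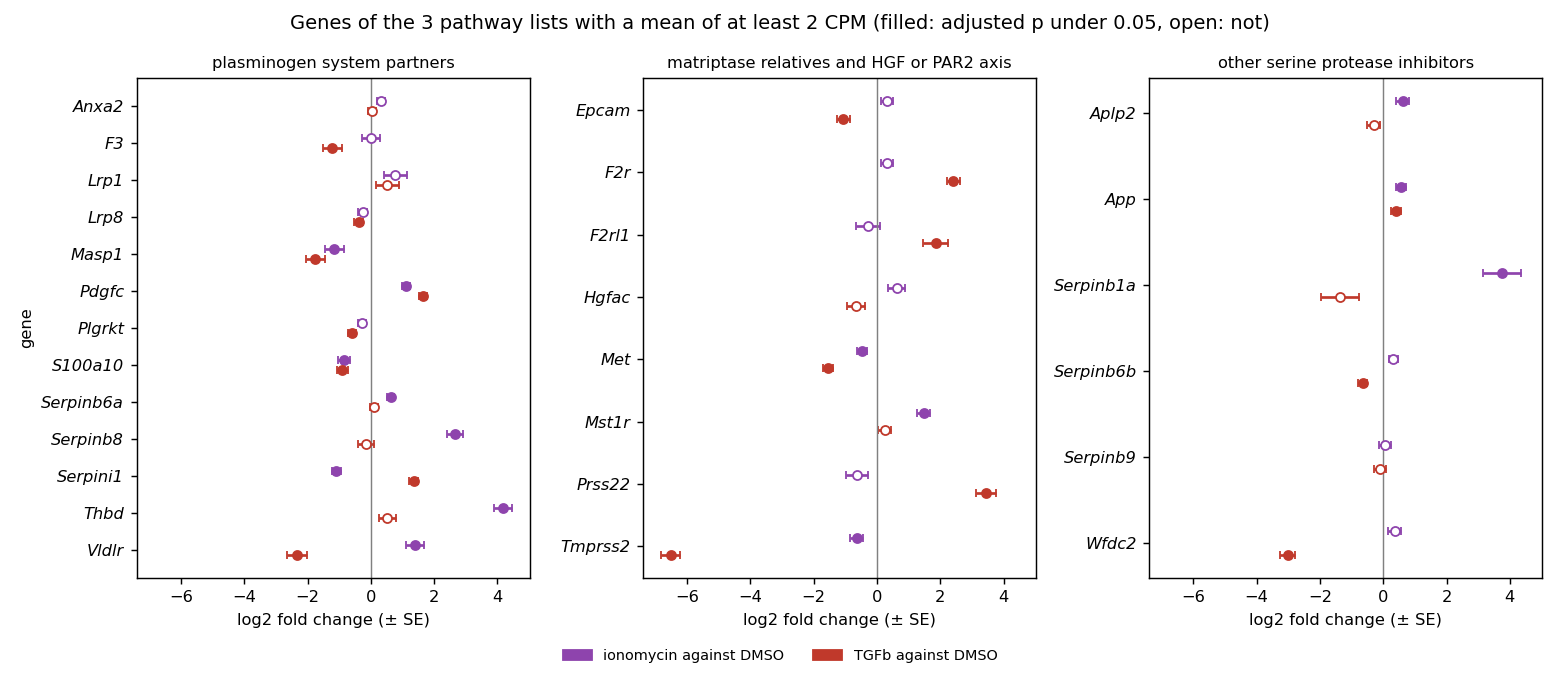
Points give the log2 fold change against DMSO (± SE) of other listed genes with a mean of at least 2 CPM, in 3 panels for the 3 lists, filled where the adjusted p was under 0.05. Thbd at 4.18 and Serpinb1a at 3.76 lie farthest right with ionomycin, and Tmprss2 at -6.53 lies farthest left with TGFb.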

How the data were processed

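Extraction used RNeasy or NucleoSpin columns, and 18 libraries were sequenced. The deposited table gives unscaled read counts for each gene symbol, made by the authors. Per the submitters' processing notes, CASAVA, Trimmomatic 0.32, STAR and featureCounts were used with the mouse build mm10. Among 24527 entries, 5059 had 0 counts in all libraries and 26 had names turned into dates. The settings, strand mode and annotation release were not given in the sources used here.

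Tests ran in edgeR 4.0.16 under R 4.3.3. After filterByExpr on the 9 groups 13827 genes were tested, with TMM scaling. Treatments were compared with robust quasi-likelihood F tests in a model of line and treatment, and effects within lines, line dependence (2 degrees of freedom) and line differences in a model with a mean per group. P-values were adjusted by Benjamini-Hochberg over all tested genes and called under 0.05. The SE is the log2 fold change over the square root of F. Levels in CPM are summarised as the mean of line means with its SD (n = 3). Lengths are annotated exon lengths (GENCODE, GRCm38), matched for 97.6% of tested genes. The script was tested on simulated data. The floor of 3 counts covers counting error alone, because reads were not counted by molecule.

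The members and the 3 pathway lists were chosen with earlier results of these data known. Named list genes are, per comparison with DMSO, up to 2 rising and 2 falling called genes of each list with the smallest p and a mean of at least 2 CPM, with Plg always. A further listed gene is counted but not reported here. The 3 nearest genes per member need a mean of at least 10 CPM. Alternatives were DESeq2 1.42.0, limma-voom (limma 3.58.1), scaling by median-ratio (RLE) factors or by library totals, testing without the filter, no line term, averaged within-line effects, duplicates added up, an added threshold of 1 on the absolute log2 fold change, fits to the compared treatments alone, a transcript length offset, and leaving out each line, each library or the 4 libraries rich in short transcripts. When a library is left out, the remaining library of its group is assumed to vary like the other groups.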

Additional observations from a re-analysis of the deposited data

Results flagged for a closer look

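The TGFb effect on Serpine2 differed between the lines by a test of that difference (edgeR quasi-likelihood test on 2 degrees of freedom, adjusted p = 0.00764). The log2 fold change against DMSO was 0.06 ± 0.23 (SE) in PD454, -1.36 ± 0.23 in PD7591 and 0.46 ± 0.22 in PD883. The difference passed in all 20 alternatives run for it, with adjusted p from 0.00148 to 0.0463. PD7591 was also the line with the highest Serpine2 level with DMSO, 64.7 and 71.2 CPM against 17.2 to 23.5 CPM in the others, and with TGFb its level was 26.5 and 26.3 CPM.

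The TGFb effect on Plau differed between the lines by the same test with adjusted p = 0.0496 (edgeR), with 4.66 ± 0.26 in PD7591, 3.50 ± 0.25 in PD454 and 3.37 ± 0.25 in PD883. The difference passed in 3 of 20 alternatives and missed the threshold in the others, with adjusted p from 0.00754 to 0.200. All 3 lines moved in the same direction. Whether the duplicates are separate cultures, on whose spread both tests rest, is not stated in the labels.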

How the results depend on the processing

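Under 32 alternatives to each log2 fold change, the ionomycin calls of Plaur, Plat, Spint1 and Spint2 and the TGFb calls of Plau, Plaur and Spint2 held in all, with the same direction. The added threshold of 1 on the absolute log2 fold change is not among these 32. Spint2 with ionomycin (0.76) and Spint1 with TGFb (0.85) fall below it. The TGFb call of Spint1 was lost with no line term (0.83, adjusted p = 0.0586). Plau (0.39) and Serpine2 (0.43) were called with ionomycin from a mean per group, and Serpine2 without PD7591 (0.71). Serpine2 with TGFb was -0.62 and called without PD883 and 0.25 without PD7591 (adjusted p = 0.402), and St14 with TGFb was 0.0343 without PD454. Plaur between the treatments was -0.0694 with library totals, -0.0101 with summed duplicates, -0.12 without PD454, -0.19 without PD883 and -0.15 to 0.16 when each library was left out. Mst1r with TGFb was -0.18 without PD454. The cause was not tested.

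Ionomycin against TGFb called 6 members, 3 with no line term, and line dependence with TGFb passed for 1 member with median-ratio factors and for 1 with library totals. When each library was left out, the counts of called members ran from 4 to 4 for ionomycin and for TGFb against DMSO and 4 to 6 between them. Within PD454, PD7591 and PD883 they ran from 2 to 5, 2 to 4 and 4 to 5 with ionomycin and 2 to 4, 5 to 5 and 3 to 4 with TGFb. Line dependence passed for 0 to 2 with ionomycin and 1 to 2 with TGFb, and between lines with DMSO the counts were 4 to 4 (PD454 and PD7591), 0 to 4 (PD454 and PD883) and 1 to 2 (PD7591 and PD883).

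With duplicates summed, 1858 genes were called for ionomycin against DMSO in place of 4599, with 4 members in both, and 4646 in place of 7015 for TGFb. Library totals moved the median of all genes to -0.117 for ionomycin against DMSO and -0.108 against TGFb. The lists' ionomycin counts ran from 6 to 14 for plasminogen partners, and from 2 to 9 both for matriptase relatives and for other inhibitors. Single libraries could not be paired across groups by number, because the library numbers 1 to 18 are each used once and groups share none. This concerns replicate numbers: the treatments are matched by line through the line term, also with duplicates summed. Depth limits St14, Plg and other genes of under about 1 CPM.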
